A study of Mus musculus with 112 samples.

Results

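The genes described here are 220 long noncoding RNAs (lncRNAs) of mouse 46C embryonic stem cells that carry a Gm symbol, a placeholder made of the letters Gm and a number, and whose gene ID stood in the table of total RNA but not in the table of polyadenylated (polyA) RNA. They were taken from 1279 lncRNAs of the total RNA table of an auxin-degron line, of which 830 had such a symbol, and 603 of these stood in both tables. Another 7 Gm lncRNAs absent from the polyA table were left out by name. Members were thus selected on the authors' listing of genes in the polyA table, whose lowest value was 0.01 FPKM. That table was used for this choice alone; the polyA RNA values given below are those of SLAM-seq. All 220 were also measured after antisense treatment, and 23 had a row in the metabolic labelling table (SLAM-seq). RefSeq gave a position for 35 of the 220 and classed 28 of these as lncRNA, 5 as protein coding, 1 as a small nucleolar RNA (snoRNA) and 1 as a transcribed pseudogene, so the label lncRNA is the submitters' for some members.

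U1 snRNP is the splicing particle that pairs with 5′ splice sites, and it also protects nascent RNA from early cleavage and polyadenylation. The study's title places it in the retention of noncoding RNAs on chromatin. Many lncRNAs stay bound to chromatin where they are made, and transcripts without a poly(A) tail are missed or diminished by oligo(dT) selection. No function is given for any of the members in the files used, so no role is assigned to them below.

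The cells received antisense morpholino oligonucleotides (AMO) by nucleofection for 2 h: U1 AMO at 75 µM, U2 AMO at 75 µM, both together (U1+U2 AMO) at 50 µM, or a scrambled control AMO at 75 µM. In a second system, a line derived from 46C cells in which SNRNP70, a protein of U1 snRNP, carries an auxin-inducible degron (AID) received 500 µM auxin (IAA) for 4 h or was taken at 0 h. Each group had 3 libraries each of chromatin, nucleoplasm, cytoplasm and whole cells. Of control AMO whole cells 2 were used, because no column of values could be assigned by name to library 3. In SLAM-seq, AID cells took up 4-thiouridine (4sU) for 3 h, either during IAA after 2 h of IAA alone or with no IAA, and 3 libraries per fraction were made of each; the fraction labels give total RNA for chromatin and polyA RNA for cytoplasm and nucleoplasm. The labels do not say whether the libraries of a group are separate cultures, and the spread behind the p-values may be technical. SNRNP70 is not an lncRNA and has no row in these tables, so its loss was not measured here. In such bulk samples fewer cells of a type and less RNA per cell cannot be told apart.

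Values are FPKM (fragments scaled to transcript length and to library size), further scaled to spike-in RNA in the fractions and not in whole cells, or a spike-in scaled SLAM-seq signal. All 7 lncRNAs listed as markers of embryonic stem cells were detected, at sums of 51.5 to 65.1 FPKM on chromatin after U1 AMO and 156 to 159 FPKM after control AMO. Lists of fractionation markers did not separate the fractions cleanly in either system. The 8 nuclear-retained lncRNAs summed to 907 to 1210 FPKM on control AMO chromatin and to 1440 to 1730 FPKM in control AMO cytoplasm. At 0 h they summed to 1420 to 1700 FPKM on chromatin and 314 to 390 FPKM in cytoplasm. The 8 listed cytoplasmic spliced lncRNAs summed to 825 to 956 FPKM on control AMO chromatin and 1380 to 1770 FPKM in control AMO cytoplasm. At 0 h they went the other way, with 541 to 671 FPKM on chromatin, 426 to 500 FPKM in nucleoplasm and 358 to 389 FPKM in cytoplasm. What part this has in the fraction comparisons was not tested. Library 3 of each AMO group stood apart for a pair of members on chromatin: ENSMUSG00000100992.1, one of the 2 IDs that share the symbol Gm23925, had 177 to 357 FPKM in the libraries numbered 3 and 1780 to 9900 FPKM in the others, and Gm12238, the snoRNA, had 0.02 to 101 FPKM against 999 to 2400 FPKM. With Gm28967 they made up 84.5% to 98.1% of the members' summed level in the AMO chromatin libraries numbered 1 and 2, and 33.9% to 60.4% in those numbered 3. Without these 3 members, the others summed to 244, 279 and 300 FPKM on chromatin after U1 AMO and to 412, 369 and 431 FPKM after control AMO; with them the sums were 6940, 5000 and 758 FPKM against 6210, 4230 and 662 FPKM. Results after AMO are therefore also given without the libraries numbered 3, a comparison chosen after the data were seen. It leaves 2 libraries per group, so calls can be lost through the smaller number alone. Shares over all lncRNAs are not given for it.

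**Figure D1:**
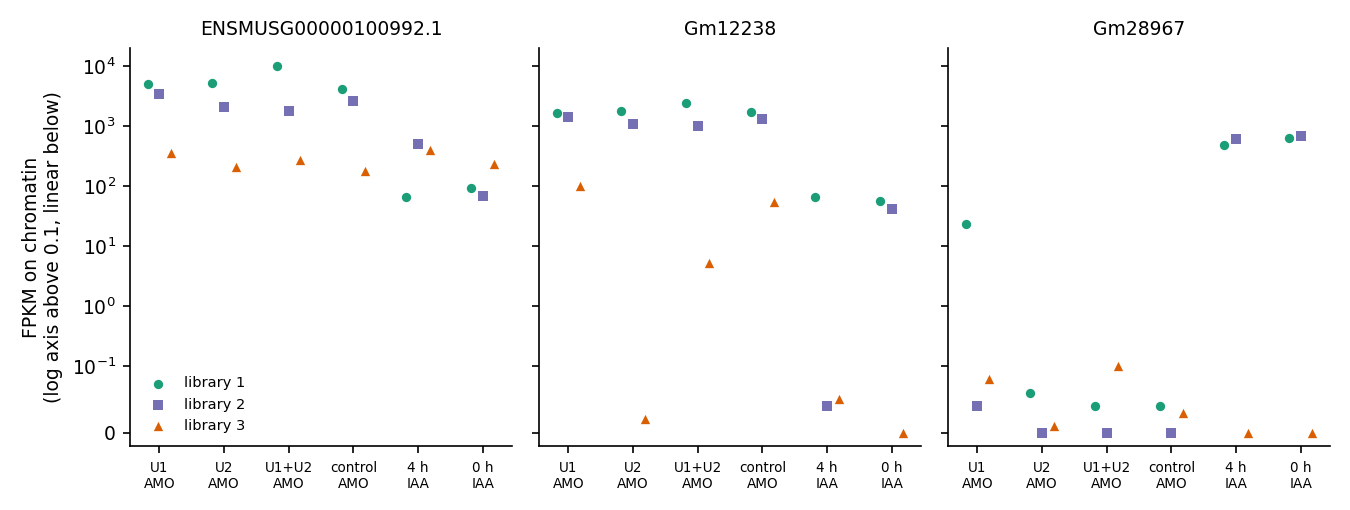
FPKM on chromatin (vertical axis, logarithmic above 0.1) of ENSMUSG00000100992.1, Gm12238 and Gm28967 in each library of the AMO and IAA groups; each point is 1 library. In the libraries numbered 3 of the AMO groups ENSMUSG00000100992.1 lay at 177 to 357 FPKM and Gm12238 at 0.02 to 101 FPKM, both below the other libraries of the AMO groups.

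The promoters of 5 members are shown because these members lead results below and RefSeq holds an entry for them: Gm16104 and Gm19325 are among the named falls after U1 AMO, Gm26800 is the first of those named after IAA among members at or above the median level, Gm10863 was lower in all 4 compartments after IAA, and Gm43560 was lower after U1 AMO with little difference after IAA. Each runs 5′ to 3′ on the strand of its gene, 250 bases before to 50 after the start, in RefSeq's GRCm38.p6. Capitals mark GGTAAG, a strong 5′ splice site core, and AATAAA, the polyadenylation signal, or their reverse complements CTTACC and TTTATT, searched on both strands.
Gm16104, chr10:81409325-81409624, plus strand: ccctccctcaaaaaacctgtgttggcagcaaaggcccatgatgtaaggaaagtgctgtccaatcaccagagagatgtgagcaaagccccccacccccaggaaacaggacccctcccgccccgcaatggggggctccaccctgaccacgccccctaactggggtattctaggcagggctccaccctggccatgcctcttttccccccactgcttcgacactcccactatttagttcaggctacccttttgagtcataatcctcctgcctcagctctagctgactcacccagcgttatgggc
Gm19325, chr9:97055160-97055459, minus strand: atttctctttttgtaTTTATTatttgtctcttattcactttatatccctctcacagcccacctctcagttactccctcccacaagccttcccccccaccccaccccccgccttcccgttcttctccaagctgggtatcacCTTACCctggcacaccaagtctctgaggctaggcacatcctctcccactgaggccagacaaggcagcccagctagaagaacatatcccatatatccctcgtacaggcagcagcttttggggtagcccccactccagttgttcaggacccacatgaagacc
Gm26800, chr16:57278958-57279257, plus strand: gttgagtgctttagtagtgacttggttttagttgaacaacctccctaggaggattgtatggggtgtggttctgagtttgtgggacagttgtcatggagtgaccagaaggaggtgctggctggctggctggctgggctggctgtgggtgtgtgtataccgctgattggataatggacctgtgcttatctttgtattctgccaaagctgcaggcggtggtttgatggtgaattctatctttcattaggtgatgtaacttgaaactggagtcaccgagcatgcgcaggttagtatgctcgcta
Gm10863, chr15:79165816-79166115, plus strand: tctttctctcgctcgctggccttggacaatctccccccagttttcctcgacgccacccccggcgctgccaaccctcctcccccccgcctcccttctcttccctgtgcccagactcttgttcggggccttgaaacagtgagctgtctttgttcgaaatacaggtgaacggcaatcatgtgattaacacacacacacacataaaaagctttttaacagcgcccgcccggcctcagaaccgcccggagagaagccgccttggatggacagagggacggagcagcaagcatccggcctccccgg
Gm43560, chr3:144534849-144535148, minus strand: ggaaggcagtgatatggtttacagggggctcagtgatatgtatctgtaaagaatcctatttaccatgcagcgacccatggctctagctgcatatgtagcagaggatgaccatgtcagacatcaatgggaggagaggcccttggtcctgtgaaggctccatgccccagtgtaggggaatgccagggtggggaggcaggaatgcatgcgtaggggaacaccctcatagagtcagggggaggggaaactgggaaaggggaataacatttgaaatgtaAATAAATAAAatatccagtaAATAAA
GGTAAG occurred in 6 of the 24 members with a promoter entry (25.0%) and in 9.33% of 27025 mouse promoters. AATAAA occurred in 4 of the 24 (16.7%) and in 20.0% of all promoters. Gm19325 held 1 of each, both on the opposite strand, and Gm43560 held 3 AATAAA, of which 2 overlap, whereas neither motif occurred in these windows of Gm16104, Gm26800 and Gm10863. Of the 35 members with a position, 21 overlapped another RefSeq gene and 7 lay wholly inside one. Gm16104 (chromosome 10, 81409575 to 81411579, 2005 bases) lay inside Nfic, and Gm43560 (chromosome 3, 144517349 to 144534898) lay inside Hs2st1. Gm26800 (chromosome 16, 57279208 to 57311248) overlapped Cmss1 and Tmem30c. Gm19325 (chromosome 9, 97048161 to 97055209) and Gm10863 (chromosome 15, 79166066 to 79216401) overlapped no other gene. Exon structure was not used here, and the strand setting of the counting is not given in the sources used, so reads of members and of genes that overlap them cannot be told apart.

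Before treatment the members were low in whole cells and highest on chromatin. In control AMO cells the median member stood at 1.44 FPKM on chromatin, 0.15 FPKM in nucleoplasm, 0.442 FPKM in cytoplasm and 0.427 FPKM in whole cells. At 0 h the corresponding medians were 1.84, 0.21, 0.152 and 0.522 FPKM. The median in control AMO whole cells was 0.427 FPKM for members and 1.03 FPKM for the 603 Gm lncRNAs in both tables. These sets were divided by listing in the polyA table, which covers whole cells and chromatin of the AID line. A lower level of members may follow from that selection, and this was not tested. Chromatin was the highest of the 3 fractions for 165 of 220 members (75.0%) in control AMO cells, against 59.4% of all 1279 lncRNAs, and for 173 members (78.6%) at 0 h, against 73.4%. Of Gm lncRNAs in both tables chromatin was highest for 69.3% in control AMO cells and 82.4% at 0 h, so members stood above them in one system and below in the other.

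Chromatin levels were then set against the mean of nucleoplasm and cytoplasm on the log2 scale, with limma and Benjamini-Hochberg adjustment over all lncRNAs tested at 0.05. In control AMO cells 159 of 217 members tested were higher on chromatin and 11 were lower, where 60.3% and 10.6% of all lncRNAs were called, and with libraries centred on their medians the split was 109 and 33. Centring gives every library the same median over the lncRNAs tested. It thus removes the median difference, which became 0.00562 for all lncRNAs. Here and below, centred results are relative to that median by construction, and shares over all lncRNAs are not given for them. The median difference was 1.88 for members, 1.32 for Gm lncRNAs in both tables and 1.11 for all lncRNAs. At 0 h 162 of 218 were higher on chromatin and 15 lower, where 69.1% and 11.3% of all were called, and the centred split was 125 and 43. The medians there were 2.99 for members, 2.27 for Gm lncRNAs in both tables and 1.87 for all. Of 216 members tested in both systems, 155 (71.8%) were higher on chromatin in both and 9 (4.17%) higher in the soluble fractions in both, against 58.2% and 7.97% of all 1267 lncRNAs.

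Gm43788 is an example of the chromatin-held members. It had 6.74, 6.35 and 8.06 FPKM on control AMO chromatin and 14.24, 8.95 and 13.9 FPKM on 0 h chromatin, and chromatin exceeded the soluble mean by 3.49 (control AMO) and 4.48 (0 h) on the log2 scale. Gm37643 differed by 3.04 and 4.49, and Gm19325 by 3.27 in control AMO cells. Gm42743 was among the members higher in the soluble fractions, in its case the cytoplasm. It had 6.72, 3.59 and 4.62 FPKM on control AMO chromatin, against 419.12, 364.6 and 402.49 FPKM in cytoplasm. At 0 h it had 2.9, 2.37 and 4.34 FPKM on chromatin, against 245.79, 215.74 and 291.78 FPKM in cytoplasm. Its chromatin level was below the soluble mean by a log2 difference of -3.98 in control AMO cells and -4.54 at 0 h, with no overlap of chromatin and cytoplasm libraries. Gm16104 was also mainly cytoplasmic at 0 h, with 0.49, 2.04 and 0 FPKM on chromatin, against 8.38, 5.92 and 5.43 FPKM in cytoplasm. Gm28967 had the lowest difference in control AMO cells (-7.74 ± 1.68 SE), with 0.04, 0 and 0.03 FPKM on chromatin, against 212.11, 0.06 and 176.87 FPKM in cytoplasm. At 0 h it was the highest member on chromatin, with 634.31, 671.84 and 0 FPKM, so its libraries disagreed within groups in both systems.

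**Figure D2:**
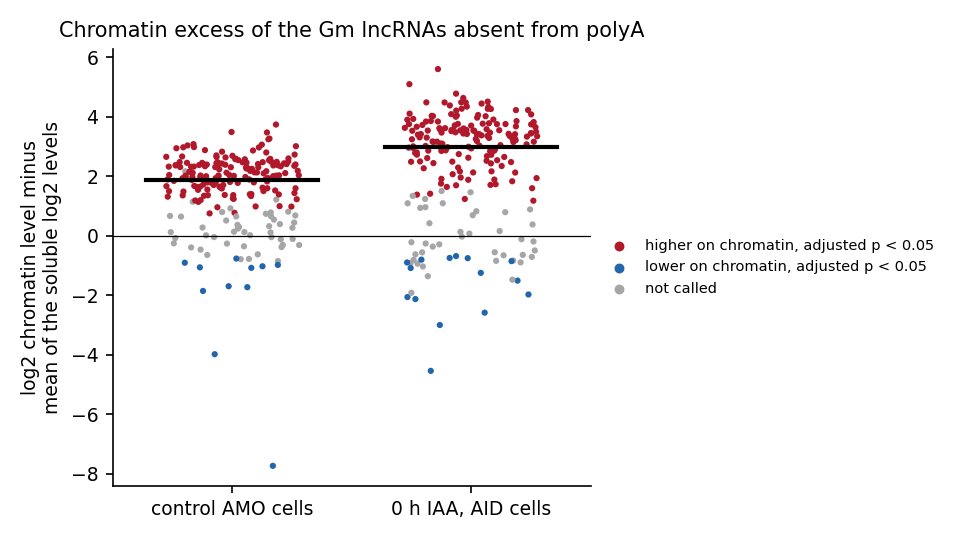
Chromatin minus soluble mean (log2, vertical axis) of each member in control AMO cells (left) and at 0 h of IAA (right); red points were higher on chromatin, blue lower, grey not called, and black lines are medians. The medians were 1.88 and 2.99, and with libraries centred on their medians the calls split 109 higher and 33 lower (control AMO) and 125 and 43 (0 h).

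On the spike-in scale, most members called on chromatin after U1 AMO were lower than after control AMO. After U1 AMO the median member stood at 0.717 FPKM on chromatin, against 1.44 FPKM after control AMO. Of 211 members tested 18 rose and 93 fell, where 5.1% of all 1256 lncRNAs tested rose and 51.8% fell. With libraries centred on their medians 56 rose and 31 fell. Centring by design removes the median change, which became 0.0399 for all lncRNAs. It therefore cannot test the net fall of the group, which rests on the spike-in scaling. The median log2 change was -0.66 for members, -0.83 for Gm lncRNAs in both tables (30 rose and 327 fell of 599) and -0.80 for all lncRNAs. The libraries of both groups did not overlap for 137 members, where 65.1% of all lncRNAs showed no overlap. Without the libraries numbered 3, 8 members rose and 68 fell. Markers of embryonic stem cells were lower in the same libraries, as given above, as were 6 listed markers of differentiated cells (15.8 to 19.9 FPKM after U1 AMO, 34.2 to 43.2 FPKM after control AMO), and their part in the result was not tested.

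The falls named next are of members in the upper range of mean level. Here and below, the largest rises and falls were chosen only where the libraries of both groups did not overlap. Lack of overlap in members so chosen therefore follows from the choice and is no further support. Gm43913 had 1.27, 1.03 and 1.25 FPKM after U1 AMO and 5.16, 5.21 and 5.22 FPKM after U2 AMO, against 5.42, 3.89 and 4.61 FPKM after control AMO. Every U1 AMO library lay below every control library, and the U2 AMO libraries lay within the control range (log2 change after U1 AMO -1.80 ± 0.17 SE, limma adjusted p = 2.41e-05). Gm19325 had 1.65, 1.41 and 1.3 FPKM after U1 AMO, against 6.43, 5.7 and 9.58 FPKM after control AMO, and Gm27010 had 1.28, 1.26 and 1.75 FPKM, against 8.56, 5.75 and 8.48 FPKM. Neither pair of groups overlapped, and the log2 changes were -2.14 ± 0.21 and -2.25 ± 0.23 (SE, limma adjusted p = 2.47e-05 for each). Gm16104 had 0.29, 1.01 and 0.51 FPKM after U1 AMO, against 3.48, 2.78 and 4.93 FPKM after control AMO (-2.35 ± 0.36, limma adjusted p = 0.000258). Gm20548, which overlaps Wdfy3, had 0.82, 0.87 and 0.72 FPKM, against 5.2, 2.91 and 3.74 FPKM (-2.01 ± 0.39, limma adjusted p = 0.00117). In both members all U1 AMO libraries were the lower ones.

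Several of the members that rose did so in more than 1 compartment. Gm43178 had 5.18, 6.12 and 9.82 FPKM on chromatin after U1 AMO, against 3.24, 2.21 and 3.03 FPKM after control AMO (log2 change 1.22 ± 0.27 SE, limma adjusted p = 0.00212). In nucleoplasm it had 2.76, 2.37 and 3.5 FPKM after U1 AMO, against 0.12, 0.2 and 0.22 FPKM after control AMO (3.01 ± 0.22, limma adjusted p = 8.43e-07). The groups did not overlap in either fraction, and the nucleoplasmic gap was the wider one. Gm43817 had 4.09, 3.31 and 5.91 FPKM on chromatin after U1 AMO, against 1.47, 1.34 and 1.79 FPKM after control AMO (1.39 ± 0.26, limma adjusted p = 0.000786). Gm42866 had 3.37, 5.52 and 5.14 FPKM, against 1.28, 1.4 and 1.6 FPKM (1.56 ± 0.38, limma adjusted p = 0.00442). The other members named among the rises were Gm24362 (log2 change 1.22, adjusted p = 0.000758) and Gm43787 (1.21, adjusted p = 0.006), and the call of Gm43787 was lost without the libraries numbered 3 (adjusted p = 0.0864). Counting chromatin, nucleoplasm, cytoplasm and whole cells, 15 of 218 members rose in 2 compartments (6.88%), 5 in 3 (2.29%) and 3 in all 4 (1.38%: Gm43336, Gm43658 and Gm43817) after U1 AMO, against 3.13%, 2.27% and 1.72% of all 1277 lncRNAs. Of the falls, 85 members fell in 1 compartment (39.0%), 6 in 2 (2.75%), 2 in 3 (0.917%: Gm19325 and Gm27010) and 0 in all 4, against 42.4%, 6.11%, 1.96% and 1.02% of all.

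Off chromatin, rises were the more frequent call after U1 AMO in nucleoplasm. There 29 of 166 members tested rose and 1 fell, where 10.5% and 3.68% of all lncRNAs were called. Of members, 15 (6.88%) rose both there and on chromatin, against 4.23% of all. The median member in control AMO nucleoplasm stood at 0.15 FPKM, below the pseudocount of 0.2 FPKM. Any 3 AMO nucleoplasm libraries at the pseudocount sufficed for testing, so members can enter through a treated group alone. Falls from such levels are hard to call for any AMO in nucleoplasm, and the part of this in the split was not tested. With a pseudocount 5 times as large the member calls in nucleoplasm fell to 9 rises and 1 fall. That setting raised the filter as well, so fewer members were tested. Gm37553 had 5.54, 2.52 and 3.41 FPKM in nucleoplasm after U1 AMO, against 0.32, 0.38 and 0.53 FPKM after control AMO, with no overlap (log2 change 2.67 ± 0.30 SE, limma adjusted p = 2.37e-05). In cytoplasm 8 of 198 members rose and 4 fell, where 3.95% and 3.38% of all were called, and without the libraries numbered 3 no call remained. In whole cells 14 of 211 rose and 5 fell, where 6.24% and 7.19% of all were called, with control AMO at n = 2. Gm43178 changed by 2.13, Gm42866 by 1.90 and Gm43817 by 1.73 in whole cells, all rises. Without the libraries numbered 3, 15 members rose and 2 fell in nucleoplasm.

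**Figure D3:**
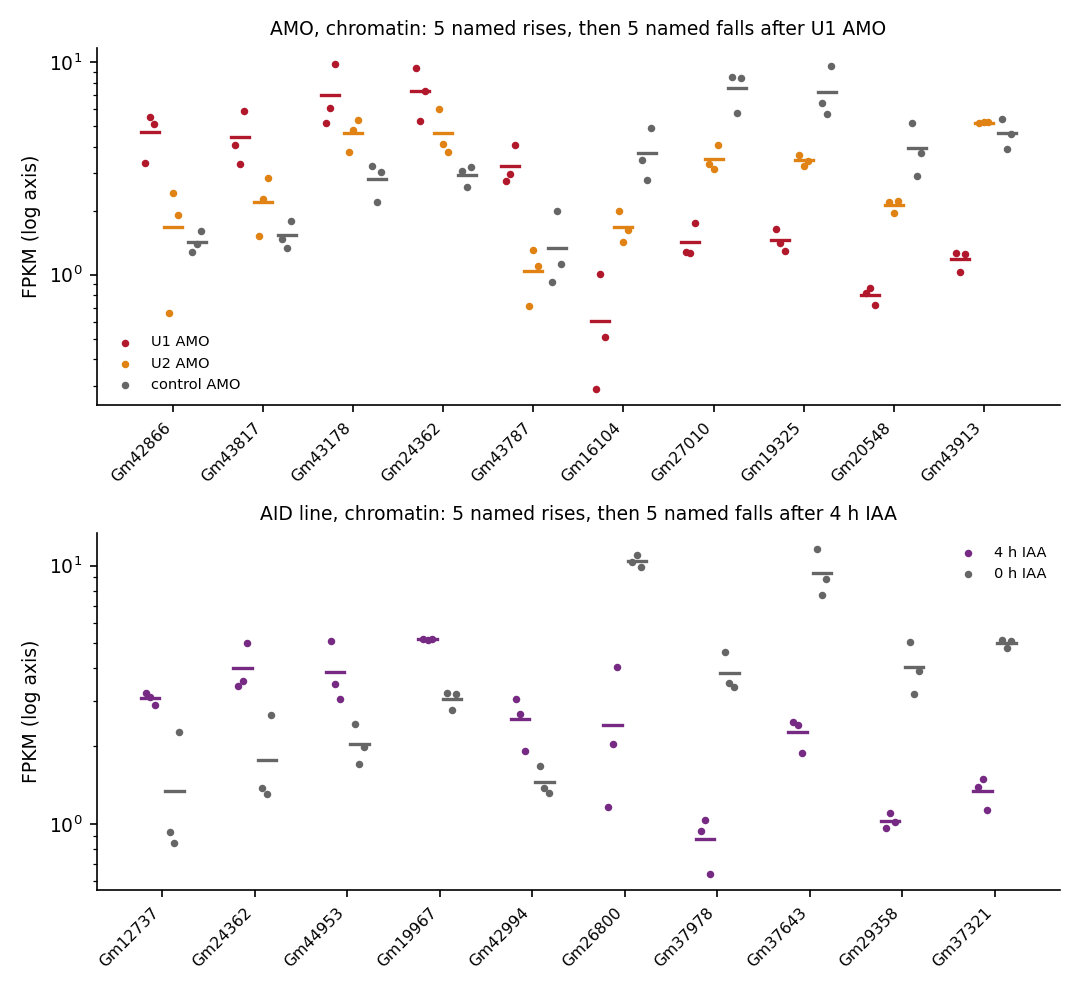
FPKM on chromatin of named members in each library; upper row, U1 AMO, U2 AMO and control AMO for the 5 named rises and 5 named falls after U1 AMO; lower row, 4 h of IAA and 0 h for those after IAA. Points are libraries and bars are means of 3; Gm43913 lay at 1.03 to 1.27 FPKM after U1 AMO, against 3.89 to 5.42 FPKM after control AMO.

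U2 AMO, which blocks the snRNP that binds the branch point, left most members without a call on chromatin. There 6 of 211 members rose and 13 fell, where 2.79% and 5.02% of all lncRNAs were called; with the replicate number as a block 16 rose and 23 fell, and with libraries centred on their medians 23 rose and 10 fell. The median log2 change was -0.03 for members and -0.14 for all. No call was left without the libraries numbered 3. Gm44552 had 13.95, 15 and 13.9 FPKM after U2 AMO, against 7.96, 5.55 and 5.93 FPKM after control AMO, and all U2 AMO libraries were higher (1.13 ± 0.17 SE, limma adjusted p = 0.00277; adjusted p = 0.0877 without the libraries numbered 3). In nucleoplasm 42 of 166 members rose and 0 fell after U2 AMO, where 19.4% and 0% of all were called. Falls from control levels near the pseudocount are hard to call here too, as described after U1 AMO. Centring left 16 rises and 5 falls, and leaving out the libraries numbered 3 left 18 calls. Gm43420 had 1.47, 1.55 and 1.45 FPKM there, against 0.2, 0.09 and 0.26 FPKM after control AMO, without overlap (log2 change 2.17). In whole cells 4 of 211 rose and 0 fell, where 2.24% and 1.28% of all were called, and in cytoplasm limma called 0 of 198, with 26 at an unadjusted p below 0.05, where 0.403% and 0.886% of all were called.

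U1 AMO was also tested directly against U2 AMO on chromatin, at the same dose. There 14 of 211 members were higher after U1 AMO and 80 were lower, where 5.33% and 40% of all lncRNAs were called; centring gave 44 higher and 31 lower, and leaving out the libraries numbered 3 gave 4 and 46. The median log2 difference was -0.56 for members and -0.58 for all. Gm37566 had 0.38, 0.62 and 0.74 FPKM after U1 AMO, against 3.56, 4.19 and 3.76 FPKM after U2 AMO, with all U1 AMO libraries lower (-2.40 ± 0.24 SE, limma adjusted p = 1.69e-05). Its control AMO libraries had 1.8, 1.71 and 2.25 FPKM, between the others. Gm37634 had 4.6, 1.91 and 3.34 FPKM after U1 AMO, against 17.42, 12.24 and 16.69 FPKM after U2 AMO (log2 difference -2.23). Gm42866 and Gm43787 were higher after U1 AMO (adjusted p = 0.00796 and 0.00272), as was Gm19967, by 1.05 (adjusted p = 0.0561 without the libraries numbered 3).

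The combined AMO was given at another dose, so it is set beside U1 AMO without a test. It shares the control libraries with it. On chromatin 14 of 211 members rose and 86 fell after U1+U2 AMO, where 3.82% and 49.2% of all were called; centring gave 45 rises and 20 falls, and without the libraries numbered 3 there were 5 and 52. The median log2 change was -0.60 for members and -0.75 for all lncRNAs. In nucleoplasm 22 of 166 rose and 4 fell (7.88% and 6.83% of all), in cytoplasm 8 of 198 rose and 6 fell (2.74% and 5.48% of all), and in whole cells 13 rose and 4 fell (6.24% and 5.36% of all). Gm43658 and Gm43817 rose in all 4 compartments (0.917% of members, 0.861% of all).

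After 4 h of IAA the calls on chromatin were, on the spike-in scale, again mostly falls. The median member stood at 1.04 FPKM at 4 h, against 1.84 FPKM at 0 h. Of 211 members tested 7 rose and 73 fell, where 3.17% and 46.7% of all 1260 lncRNAs were called. With libraries centred 55 rose and 35 fell. Here too centring removes the median change, which became 0.0891 for all lncRNAs. It cannot test the net fall, which rests on the spike-in scaling. The median log2 change was -0.38 for members, -0.62 for Gm lncRNAs in both tables (23 rose and 291 fell of 601) and -0.65 for all. Libraries of 4 h and 0 h did not overlap for 98 members, where 56.7% of all lncRNAs showed no overlap. Markers of embryonic stem cells summed to 63.6 to 79.6 FPKM at 4 h and 155 to 204 FPKM at 0 h on the same chromatin, and their part in the result was not tested.

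Among members at or above the median level of the lncRNAs tested, Gm26800 had the largest named fall after IAA. It had 1.16, 2.04 and 4.04 FPKM at 4 h, against 10.33, 10.98 and 9.9 FPKM at 0 h, with no overlap (log2 change -2.23 ± 0.35 SE, limma adjusted p = 0.000615). After U1 AMO it had 0.78, 1.36 and 1.61 FPKM, against 3.7, 3.99 and 2.66 FPKM after control AMO (-1.36, limma adjusted p = 0.0299), a call lost without control AMO library 1 or 2 or U1 AMO library 1 (adjusted p = 0.076, 0.0827 and 0.111) and on centring (0.463). Gm37643 had 2.48, 2.42 and 1.88 FPKM at 4 h, against 11.61, 7.69 and 8.85 FPKM at 0 h (limma adjusted p = 7.73e-05). Gm37321 had 1.39, 1.49 and 1.13 FPKM at 4 h, against 5.15, 4.78 and 5.1 FPKM at 0 h (-1.84 ± 0.20, limma adjusted p = 9.2e-05). The 4 h libraries of both were below all 0 h libraries. Gm37978 and Gm29358 changed by -2.03 and -1.86.

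The rises after IAA were few. Gm19967 had 5.21, 5.16 and 5.21 FPKM at 4 h, against 3.2, 2.77 and 3.17 FPKM at 0 h, without overlap (0.75 ± 0.18 SE, limma adjusted p = 0.00541). It also rose in nucleoplasm and whole cells, and on chromatin after U1 AMO (0.64, adjusted p = 0.0447). Gm24362 had 3.42, 3.58 and 5 FPKM at 4 h, against 1.37, 1.31 and 2.63 FPKM at 0 h, and rose in both systems (1.18 ± 0.29 after IAA, limma adjusted p = 0.00639). Gm12737 and Gm44953 went opposite ways. Gm44953 had 5.12, 3.47 and 3.05 FPKM at 4 h, against 2.43, 1.7 and 1.98 FPKM at 0 h (0.88 ± 0.24, limma adjusted p = 0.0126), but 0.38, 0.46 and 0.88 FPKM after U1 AMO, against 1.65, 2.18 and 1.81 FPKM after control AMO (-1.47, limma adjusted p = 0.00244). Gm12737 changed by 1.27 after IAA (adjusted p = 0.00916) and by -0.87 after U1 AMO (adjusted p = 0.0311), and whether the changes differed between the systems was not tested. Gm42994 rose by 0.75, a call lost without either of 0 h libraries 2 and 3 or 4 h libraries 1 and 2 (adjusted p = 0.0559, 0.0717, 0.0875 and 0.0866).

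In the other compartments IAA gave few calls. In nucleoplasm 3 of 176 members rose and 15 fell (5.21% and 10.8% of all), with 7 and 10 on centring. In cytoplasm 0 of 129 rose and 4 fell (2.66% and 1.01% of all), and in whole cells 9 of 211 rose and 13 fell (5.31% and 6.5% of all). Leaving out 1 library gave 1 to 13 calls in nucleoplasm, 0 to 3 in cytoplasm and 2 to 10 in whole cells. Gm10863 and Gm5091 fell in all 4 compartments (0.917% of members, 0.313% of all), and the nucleoplasmic and cytoplasmic calls of Gm10863 were lost on leaving out some single libraries (adjusted p up to 0.0704 and 0.0752). Gm10863 had 0.43, 0.15 and 0.29 FPKM on chromatin at 4 h, against 1.97, 2.38 and 4.4 FPKM at 0 h (log2 change -2.93), and in whole cells 0.95, 1.23 and 1.41 FPKM, against 2.97, 3.52 and 2.64 FPKM (-1.28). Neither pair of groups overlapped. Gm5091 had 0.75, 0.83 and 0.51 FPKM in cytoplasm at 4 h, where it was highest, against 3.42, 3.05 and 1.55 FPKM at 0 h (-1.75), a call that was lost on leaving out any single library other than 0 h library 3 (adjusted p 0.0841 to 0.158).

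U1 AMO and IAA share no libraries, and 207 members were tested in both. On chromatin 52 fell in both (25.1%), 3 rose in both (1.45%), and 2 fell after U1 AMO and rose after IAA (0.966%), against 33.2%, 0.964% and 0.884% of all 1245 lncRNAs tested in both. Of the 207 members 38 fell after U1 AMO alone and 20 after IAA alone, against 226 and 165 of all 1245 lncRNAs. Rises after U1 AMO alone were 14 and after IAA alone 2, against 48 and 17 of all. There were 76 members called in neither, against 350 of all. Of 599 Gm lncRNAs in both tables, 199 fell in both. Gm19325 fell in both, at 0.98, 0.88 and 0.79 FPKM at 4 h, against 3.33, 2.71 and 3.99 FPKM at 0 h (log2 change -1.80, limma adjusted p = 0.000196). Gm43913 was called after U1 AMO but had 2.06, 1.82 and 1.63 FPKM at 4 h, against 2.18, 2.35 and 2.43 FPKM at 0 h (-0.33, limma adjusted p = 0.216). Gm43560 had 1.53, 2.47 and 2.74 FPKM after U1 AMO, against 5.43, 5.36 and 4.91 FPKM after control AMO (-1.19, limma adjusted p = 0.0014; 0.147 on centring), and 11.69, 8.63 and 7.12 FPKM at 4 h, against 9.3, 7.07 and 11.25 FPKM at 0 h. The 4 h and 0 h values of Gm43560 overlapped throughout. Gm43788 had 5.83, 6.75 and 8.29 FPKM after U1 AMO, against 6.74, 6.35 and 8.06 FPKM after control AMO, and 12.54, 11.75 and 11.06 FPKM at 4 h, against 14.24, 8.95 and 13.9 FPKM at 0 h. It overlapped in both systems (-0.03 and -0.04), and relative to the library medians it was higher by 0.81 and 0.70.

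**Figure D4:**
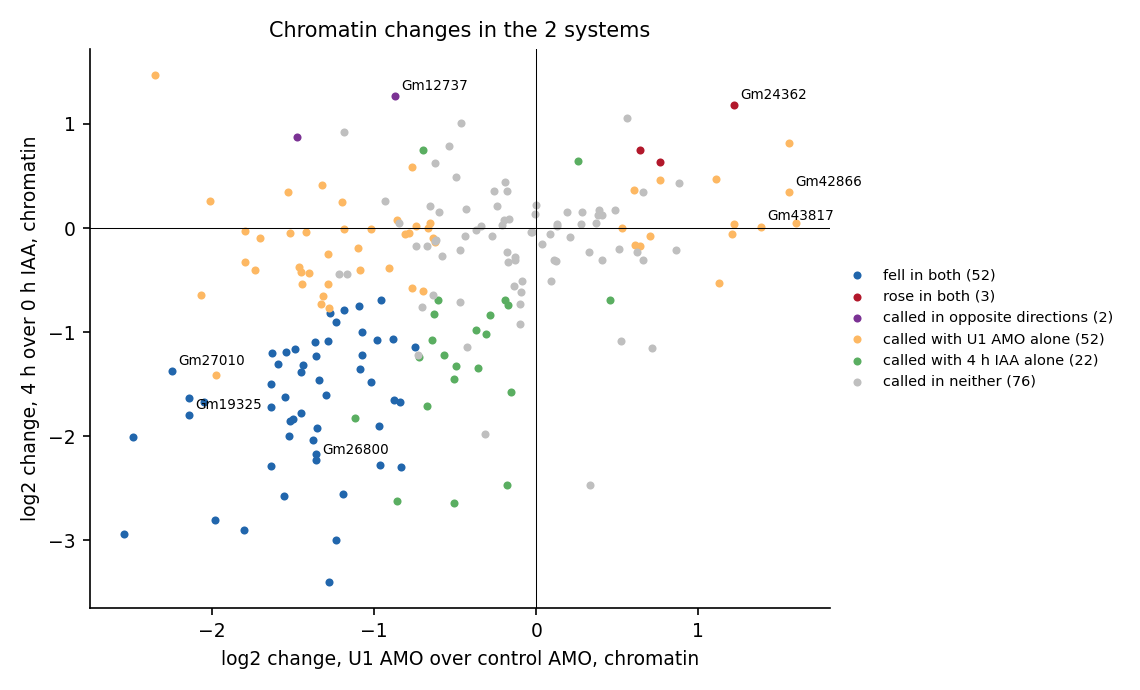
Log2 change on chromatin of each member after U1 AMO (horizontal axis) and after 4 h of IAA (vertical axis), coloured by its calls. Of 207 members tested in both, 52 fell in both and 3 rose in both; with libraries centred on their medians the calls were 56 rises and 31 falls after U1 AMO and 55 rises and 35 falls after IAA.

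Members held on chromatin before treatment were compared with the others, using the baseline of the system in which the change was not measured. Of 161 members higher on chromatin at 0 h, 82 (50.9%) fell on chromatin after U1 AMO, against 8 of 37 (21.6%) with no baseline call and 3 of 12 (25.0%) that were higher in the soluble fractions; the shares over all lncRNAs were 59.6%, 37.1% and 28.5%. Of 159 members higher on chromatin in control AMO cells, 61 (38.4%) fell after IAA, against 10 of 44 (22.7%) with no call and 2 of 8 (25.0%); over all lncRNAs the shares were 49.0%, 45.9% and 35.5%. These shares rest on few soluble members. The classes were not matched for chromatin level, and falls of low members are harder to call. What part this has in the shares was not tested. The change on chromatin was tested against the mean change of nucleoplasm and cytoplasm as an interaction. It was lower on chromatin for 51 of 218 members after U1 AMO and higher for 0, where 19.7% and 0.0783% of all lncRNAs were called, with a median difference of -0.78 for members and -0.66 for all; leaving out 1 library gave 17 to 55 calls, with 17 without U1 AMO chromatin library 1, and 32 and 22 without control AMO chromatin libraries 1 and 3. After IAA it was lower for 24 of 219 and higher for 0, where 19.2% and 0.313% of all were called, with medians of -0.33 and -0.58. With libraries centred, 1 call was left after U1 AMO and 5 after IAA. Centring moved the median difference of all lncRNAs to 0.175 and 0.0387, so it takes away a general shift by construction. After U1 AMO none was left without the libraries numbered 3. Of the 51 members, 44 were also called lower on chromatin by themselves, 6 were called higher in nucleoplasm or cytoplasm, 1 was both and 2 were neither. Of the 24 members after IAA, 23 were called lower on chromatin and 0 higher in nucleoplasm or cytoplasm. These parts were not counted over all lncRNAs, so they are not given as a trait of the members.

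Newly made RNA was followed by SLAM-seq for the 23 members with a row, against 188 of the 603 Gm lncRNAs in both tables. Libraries held 24927 to 227237 recovered reads, of which 2974 to 7370 fell on members in chromatin, 71 to 210 in cytoplasm and 242 to 497 in nucleoplasm. On chromatin 2 of 20 members tested rose with IAA and 4 fell, where 5.67% and 33.6% of all 423 lncRNAs were called. With libraries centred, which moves the median change of all lncRNAs from -0.41 to 0.15, 6 rose and 1 fell. The median log2 change was -0.25 for members and -0.41 for all. The median member had a signal of 164 with IAA and 198 without, against 33.2 and 57.9 over all lncRNAs of the table. This signal is a read number that is not scaled to transcript length, so it does not compare the output of different genes.

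Gm37899 fell most among these members. Its signal was 80.31, 37.88 and 54.64 with IAA, against 275.23, 302.44 and 196.77 without IAA, with no overlap (-2.05 ± 0.26 SE, limma adjusted p = 4.01e-05). In total chromatin RNA it changed by -1.50 after IAA and by -1.64 after U1 AMO. Gm37407 and Gm13166 fell by 0.93 and 0.79, calls lost on centring (adjusted p = 0.0587 and 0.194), and Gm44760, named after its values were seen because it completes the 4 falls, had 36.27, 29.04 and 29.66 with IAA, against 76.45, 99.65 and 58.74 without. Gm44552 rose, at 335.92, 267.68 and 201.41 with IAA, against 145.26, 143.55 and 79.3 without (1.10 ± 0.25, limma adjusted p = 0.00342). Its total chromatin RNA was not called after IAA in the AID line. In the other system its total chromatin RNA fell after U1 AMO (-0.77, limma adjusted p = 0.00212). Gm43420 had 295.34, 306.82 and 297.42 with IAA, against 149.85, 199.3 and 176.21 without (0.76 ± 0.17, limma adjusted p = 0.00316). For Gm43420 too, total chromatin RNA was not called after IAA. In both rises every IAA library was the higher. Gm43788 had 731.43, 645.2 and 667.45 with IAA, against 643.73, 710.1 and 531.57 without, and the groups overlapped (0.12, limma adjusted p = 0.551).

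In labelled nucleoplasmic RNA 4 of 23 members rose with IAA and 1 fell, where 17.8% and 9.59% of all 490 lncRNAs were called. Gm43420 had 92.65, 80.46 and 37.29 with IAA, against 13.09, 16.1 and 14.8 without, with no overlap (log2 change 1.71, limma adjusted p = 0.00497; 0.066 without IAA library 1). Gm28836, which overlaps Gsta3 and Tmem14a, had 3.19, 1.64 and 6.78 with IAA, against 47.12, 38.23 and 27.48 without, and all IAA libraries were lower (-1.94, limma adjusted p = 0.00497). The rises of Gm43544, Gm37566 and Gm44552 (1.70, 1.51 and 1.52) were each lost on leaving out 1 of several libraries, with adjusted p up to 0.104, 0.175 and 0.165. In cytoplasm limma called 0 of 12 members, with 2 at an unadjusted p below 0.05, where 6.62% and 4.02% of all were called, and edgeR on the recovered reads also called 0. Of 19 members tested on chromatin both for labelled and for total RNA in the AID line, 3 fell in both (15.8%), against 29.7% of all 357 lncRNAs so tested.

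**Figure D5:**
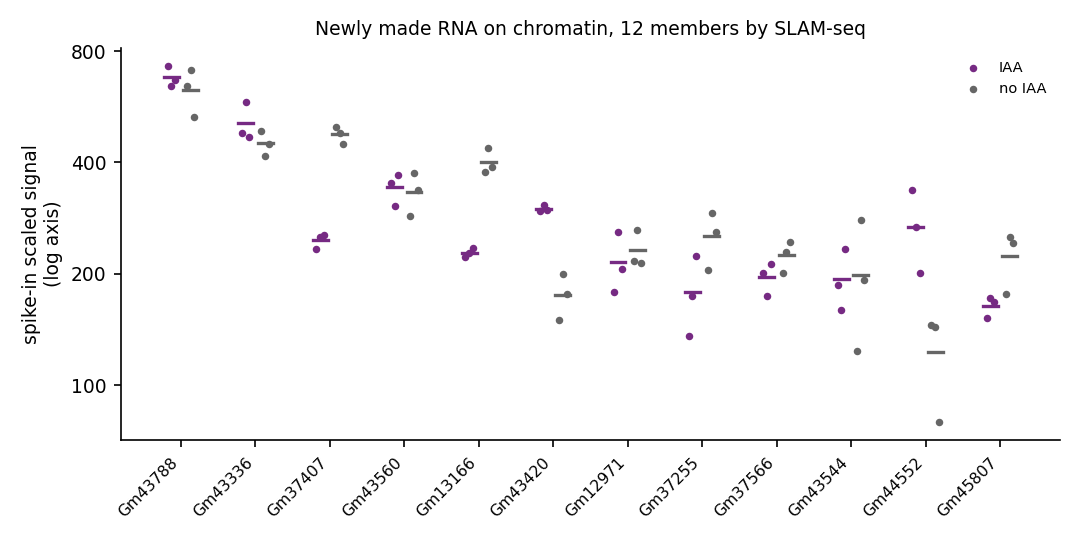
SLAM-seq signal on chromatin of the 12 members with the highest mean, with IAA and without IAA; points are libraries and bars are means of 3. Gm44552 lay at 201.41 to 335.92 with IAA and 79.3 to 145.26 without, and Gm43788 overlapped between the groups.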

How the data were processed

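Per the labels and the submitters' processing notes, ribosome-depleted total RNA was sequenced with a directional kit, aligned with TopHat and quantified with Cufflinks (TopHat2 2.0.11 is also named) on mm10, and the authors deposited FPKM values scaled to spike-in RNA in the fractions and unscaled in whole cells. SLAM-seq values are a normalized signal deposited by the authors, and 99.8% to 100% of the values of the libraries tested came out as whole reads within 0.1 read. Read depth behind the FPKM values is unknown, and the number of libraries limits their precision. Members and gene lists were chosen with earlier results of these data known. The 89 libraries of the comparisons were fitted per fraction on log2(value + pseudocount) with limma 3.58.1 in R 4.3.3, on all lncRNAs with 3 or more libraries at the pseudocount of 0.2 FPKM (AMO), 0.1 FPKM (AID) or 8 (SLAM-seq), the 10th percentile of values above 0. Fold changes on this scale understate those of low genes. The adjusted p threshold was 0.05. Tables were made with Python 3.11.15 and pandas 2.3.3. The fits were tested on simulated data. Alternatives were a pseudocount 5 times as large, which raised the filter with it, no filter, centred libraries and a replicate block. Others were leaving out each library, edgeR 4.0.16 on recovered reads, and, added later, leaving out the AMO libraries numbered 3. Named members were the 8 highest on 0 h chromatin and 12 by SLAM-seq level. Added to these were the 5 largest rises and falls past the threshold, at or above the median level. This held after U1 AMO and IAA on chromatin, in the baseline and in the interaction, with 3 per direction elsewhere. Outside the baseline and the interaction, such rises and falls also had to show no overlap between the libraries of both groups. Same-numbered AMO chromatin libraries deviated together in 18 of 18 pairs (r 0.284 to 0.565), so the numbers were taken to pair those libraries. In AMO nucleoplasm 17 of 18 pairs and in AMO cytoplasm 14 of 18 had r above 0.1. The main fits and their p-values left this pairing out, and only the replicate block among the alternatives used it. One column (1) without a stated fraction was not used.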

Additional observations from a re-analysis of the deposited data

Results flagged for a closer look

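For 8 named members the change on chromatin differed from the mean change of nucleoplasm and cytoplasm by the interaction test. After U1 AMO the differences (chromatin change minus soluble change, log2) were -2.34 ± 0.43 for Gm16096 (SE, limma adjusted p = 0.00177), -2.03 ± 0.59 for Gm16104 (adjusted p = 0.0177), -1.72 ± 0.38 for Gm5091 (adjusted p = 0.00452), -1.55 ± 0.49 for Gm43017 (adjusted p = 0.0289) and -1.36 ± 0.39 for Gm37415 (adjusted p = 0.0179). Gm16096 had 0.13, 0.53 and 0.33 FPKM on chromatin after U1 AMO, against 2.03, 1.66 and 2.44 FPKM after control AMO. Its cytoplasmic level was 5.64, 8.12 and 7.22 FPKM after U1 AMO, against 3.83, 5.88 and 4.17 FPKM after control AMO, so the groups were apart on chromatin and overlapped in cytoplasm. Gm43017 had 2.42, 2.14 and 1.61 FPKM in cytoplasm after U1 AMO, against 0.22, 0.45 and 0.27 FPKM after control AMO, with no overlap, and overlapped on chromatin.

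After 4 h of IAA the differences were -1.40 ± 0.43 for Gm28836 (limma adjusted p = 0.0332), -1.32 ± 0.45 for Gm10863 (adjusted p = 0.0495) and -1.17 ± 0.35 for Gm13067 (adjusted p = 0.0293). Gm13067 had 8.51, 8.27 and 7.16 FPKM on chromatin at 4 h, against 11.43, 8.66 and 6.69 FPKM at 0 h, and 7.2, 7.77 and 7.09 FPKM in cytoplasm at 4 h, against 3.51, 4.31 and 2.14 FPKM at 0 h. Its groups overlapped on chromatin and were apart in cytoplasm. All 8 calls were lost with libraries centred on their medians (adjusted p 0.0652 for Gm16096 to 0.643 for Gm37415), and the 5 after U1 AMO were lost without the libraries numbered 3 (adjusted p 0.0766 to 0.205).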

How the results depend on the processing

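Counts of members called moved as follows, and the cause was not tested. Without the AMO libraries numbered 3 (U1 AMO chromatin 76), counts were 0 in U1 AMO cytoplasm, 17 in its nucleoplasm and 12 in whole cells; 0, 18 and 0 for U2 AMO chromatin, nucleoplasm and whole cells; 57, 0, 8 and 11 for U1+U2 AMO chromatin, cytoplasm, nucleoplasm and whole cells; 50 for U1 against U2 AMO; and 0 for the interaction after U1 AMO. A pseudocount 5 times as large raised the filter as well, so fewer members were tested in AMO nucleoplasm. Only 9 of 220 members had a mean of 1 FPKM or more in control AMO nucleoplasm, and 19 after U1 AMO. Counts in that setting were 10 in U1 AMO, 9 in U2 AMO and 11 in U1+U2 AMO nucleoplasm. They were 9 in U1+U2 AMO cytoplasm, 11 in IAA nucleoplasm, 1 in SLAM-seq nucleoplasm and 57 for the interaction after IAA. With centred libraries they were 33 for U2 AMO chromatin, 21 for its nucleoplasm and 10 for whole cells, 65 for U1+U2 AMO chromatin, 3 for SLAM-seq nucleoplasm, and 1 and 5 for the interactions after U1 AMO and IAA. With the replicate block they were 39 for U2 AMO chromatin, 2 for U2 AMO cytoplasm, 2 for IAA cytoplasm and 8 for IAA whole cells. Same-numbered libraries had r above 0.1 in 18 of 18 pairs for AMO chromatin and 14 of 18 for AMO cytoplasm. For AID cytoplasm and for AID whole cells it was 1 of 3 pairs each. For U1 AMO and U1+U2 AMO chromatin the block gave 22 rises and 105 falls, and 23 and 105, and no other count moved by over 1.5 times.

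Leaving out 1 library gave 91 to 99 calls for U1 AMO chromatin and 67 to 74 for IAA chromatin. The ranges were 6 to 13 for U1 AMO cytoplasm, 9 to 16 for its whole cells, 5 to 17, 0 to 1 and 0 to 4 for U2 AMO chromatin, cytoplasm and whole cells, 5 to 9 and 10 to 17 for U1+U2 AMO cytoplasm and whole cells, 0 to 3, 1 to 13 and 2 to 10 for IAA cytoplasm, nucleoplasm and whole cells, 0 to 1 and 2 to 5 for SLAM-seq cytoplasm and nucleoplasm, and 17 to 55 for the interaction after U1 AMO (17 without U1 AMO chromatin library 1).

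Of members named, 10 of 139 values changed sign on centring: on SLAM-seq chromatin Gm12971 0.452, Gm37255 0.0644, Gm37566 0.376 and Gm45807 0.15; after IAA Gm28967 0.555, Gm37008 0.681, Gm43560 0.729 and Gm43788 0.703; and after U1 AMO Gm37008 0.0273 and Gm43788 0.813. With edgeR Gm43544 was -0.0489 on SLAM-seq chromatin. On leaving out 1 library, the values that changed sign ran from -0.84 to 1.73 for ENSMUSG00000100992.1, -1.27 to 1.63 for Gm12238 and -0.156 to 0.0905 for Gm43788 after U1 AMO; from -4.41 to 3.94 for Gm28967, -0.317 to 0.0992 for Gm37008, -0.204 to 0.15 for Gm43560 and -0.256 to 0.0764 for Gm43788 after IAA; from -0.253 to 0.00819 for Gm12971, -0.27 to 0.29 for Gm43544 and -0.0538 to 0.133 for Gm43560 on SLAM-seq chromatin; and from -0.137 to 0.456 for Gm13166 and -0.0797 to 0.912 for Gm43560 in SLAM-seq nucleoplasm. By edgeR 2 of 20 members rose and 4 fell on SLAM-seq chromatin (24 and 133 of all 423 lncRNAs), and 4 of 23 rose and 1 fell in nucleoplasm (83 and 39 of all 490). Members had 71 to 210 reads per library in labelled cytoplasm and 242 to 497 in nucleoplasm, which limits detection there, and the depth of the FPKM libraries is unknown.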

Other observations

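Among 12 members tested in labelled cytoplasmic RNA, 2 had an unadjusted p below 0.05 and did not pass the adjusted threshold. Gm45807 had a signal of 181.82, 109.65 and 178.34 with IAA, against 59.88, 141.24 and 21.28 without IAA (limma adjusted p = 0.203). Gm16096 had 37.88, 100.88 and 25.48 with IAA, against 77.84, 259.89 and 191.49 without IAA (limma adjusted p = 0.0883). The libraries of both groups overlapped for each.

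Gm28967 was listed at 0 in library 3 of both AID chromatin groups, with 475.57 and 605.67 FPKM in the other 4 h libraries and 634.31 and 671.84 FPKM in the other 0 h libraries. In whole cells it had 236.85, 254.48 and 220.73 FPKM at 4 h, against 352.27, 87.26 and 235.7 FPKM at 0 h.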
